A study of Mus musculus with 18 samples.

Results

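The 4 genes described here encode the mouse superoxide dismutases, Sod1, Sod2 and Sod3, and the peroxide-degrading enzyme catalase, Cat. They were chosen by their symbols in the deposited expression table, and they are 4 of the 53715 genes counted. Superoxide, a by-product of respiration and of dedicated oxidases, is converted by the dismutases into hydrogen peroxide, and catalase splits hydrogen peroxide into water and oxygen. Each enzyme works in its own compartment. Sod1, which needs copper and zinc, is found mainly in the cytosol, Sod2 carries manganese and sits in the mitochondrial matrix, Sod3 is secreted and also uses copper and zinc, and catalase is held mainly in peroxisomes. In the ovary these enzymes are known as part of the protection of long-lived oocytes and their follicle cells against oxidative damage.

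RNA was sequenced in bulk from mouse oocytes of 3 stages, namely oocytes of primordial follicles, oocytes of primary follicles and oocytes in metaphase II (MII). At each stage a sham group was compared with an NTY group, and what NTY stands for is not explained in the labels. The mice were a C57Bl/6j x CBA/J cross and all samples were described as in vivo. Each of the 6 groups had 3 libraries, 18 in all. The primordial and primary libraries were taken to be the laser-microdissected ones, for which the labels describe pooled caps and linear amplification of very small amounts of RNA, and the MII libraries to be the collected oocytes prepared with Smart-seq II. Stage and library method therefore cannot be told apart between MII and the follicle stages. No age and no number of mice is given in the labels, and they do not say that the replicates came from separate mice, so p-values measure the spread between these libraries.

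The 12 microdissected libraries held between 15149564 and 29205503 counts, and the 6 MII libraries between 8652089 and 9978830. At these depths 3 counts, taken as the floor of detection, correspond to 0.103 to 0.198 CPM (counts scaled by the library total) in the microdissected libraries and to 0.301 to 0.347 CPM in MII. Between 6147 and 13755 genes had a count in a microdissected library, against 12782 to 18239 in MII. Replicates of the microdissected groups differed strongly from each other, with a common dispersion of 3.60 against 0.542 in MII. Of the 7588 genes that reached 1000 counts in at least 1 microdissected library, 17.1% had 10 or more counts in all 12, and the median such gene had 3 counts or fewer in 2 of the 12. A count near 0 in a single microdissected library was therefore common even for genes that reached 1000 counts in another.

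The labelled cell type was checked against marker genes. The summed level of 12 oocyte markers lay between 6378 and 8855 CPM in the MII libraries and between 206 and 1403 CPM in 11 of the microdissected libraries. Primordial NTY replicate 3 stood apart with 3.96 CPM. In that library Gdf9, an oocyte growth factor, had 4 counts, against a median of 1057 in the other 11, and Ddx4, a germ cell helicase, had 1 count against a median of 1749, although single other libraries were as low, at 5 and 1 counts. Markers of other ovarian cells were present in every microdissected library. There the 6 stromal markers summed to between 1377 and 17910 CPM and the 11 granulosa cell markers to between 761 and 4721 CPM. In MII these sums were at most 2.91 and at most 159 CPM, and the stromal collagens Col1a2 and Col3a1 and the granulosa cell factor Foxl2 were at 0 in all 6 libraries. The part of these other cells in the member levels was not tested, and in bulk samples fewer cells of a type and less RNA per cell cannot be told apart.

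Sod1 was the dismutase found throughout. It had at least 37 counts in each of the 18 libraries, and its level in TPM (counts per gene length, scaled to a fixed sum per library) was the highest of the 4 members in 16 of them. By counts, without gene length, it was the highest in 11. The gene lengths behind the deposited TPM are not given in the sources used here. In that table a TPM stands for 5.92 times as many counts for Sod2 as for Sod1, and 4.04 times as many for Cat, whereas the lengths of all annotated exons in GENCODE M21 have ratios of 2.52 and 0.658 to that of Sod1, so the order of the members depends on the lengths used. The gene (ENSMUSG00000022982) lies on the plus strand of chromosome 16, from 90220754 to 90226329 in GRCm38. Its last bases, from 90225680 on, also belong to Scaf4 on the minus strand, and since the strand setting of the counting is not given in the sources used here, reads there could come from either gene.

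In oocytes of primordial follicles, Sod1 stood at 668, 538 and 427 TPM in the 3 sham libraries. In the 3 NTY libraries it stood at 120, 117 and 7.26 TPM. All NTY values were below all sham values, with a ratio of 4.59 between the medians, and the lowest NTY value was that of the library poor in oocyte markers. Among 15724 genes with a value in these 6 libraries, 1.88% were lower in NTY without overlap, and Sod1 was the 1 member of 4 to do so. The fitted log2 fold change of NTY against sham was -2.86 ± 2.70 (SE), which did not pass the test (adjusted p = 0.771 by the quasi-likelihood test of edgeR, with the Benjamini-Hochberg method applied over 10522 genes). Without primordial NTY replicate 3 the ranges were still apart, at 117 to 120 TPM in NTY against 427 to 668 in sham, and the log2 fold change was -2.44 (edgeR adjusted p = 0.900). The fold was negative under each of the 16 alternatives tried, between -3.51 and -2.44, with adjusted p between 0.0855 (DESeq2) and 1.

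In oocytes of primary follicles the 2 groups overlapped. Sod1 stood at 198, 118 and 194 TPM in the sham libraries. In the NTY libraries it stood at 192, 76.0 and 200.1 TPM, and the medians differed by a ratio of 1.01. The fitted log2 fold change was 0.36 ± 2.52 (edgeR adjusted p = 1). The difference between the NTY effects of the stages, primary minus primordial, was 3.22 ± 3.64 on the log2 scale and was likewise not called (edgeR adjusted p = 0.852), so the primordial contrast was not shown to be particular to that stage.

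The primordial sham group was also apart from the primary sham group, whose highest library (198 TPM) lay below the lowest primordial one (427 TPM). Of 17035 genes with a value in the sham libraries, 0.851% were lower in primary without overlap. In NTY the stages overlapped, with 76.0 to 200.1 TPM in primary and 7.26 to 120 TPM in primordial libraries. Averaged over sham and NTY, the log2 fold change of primary against primordial was -0.35 ± 1.78 (edgeR adjusted p = 1). The primordial sham libraries thus enter both of the separations of Sod1, and these are not independent of each other.

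In MII oocytes Sod1 was among the abundant transcripts, with 94.1% to 98.8% of detected genes below it. Its level was 141, 375 and 397 TPM in sham. In NTY it was 355, 729 and 168 TPM, so that the widest spread was within the NTY group. The log2 fold change of NTY against sham was 0.49 ± 0.49 (edgeR adjusted p = 1.00), and it became -0.07 when MII NTY replicate 2, the 729 TPM library, was left out. By median TPM the groups ran from primordial sham (538) through MII sham (375), MII NTY (355), primary sham (194) and primary NTY (192) to primordial NTY (117). Apart from primordial sham and MII sham, neighbours in this order overlapped.

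**Figure D1:**
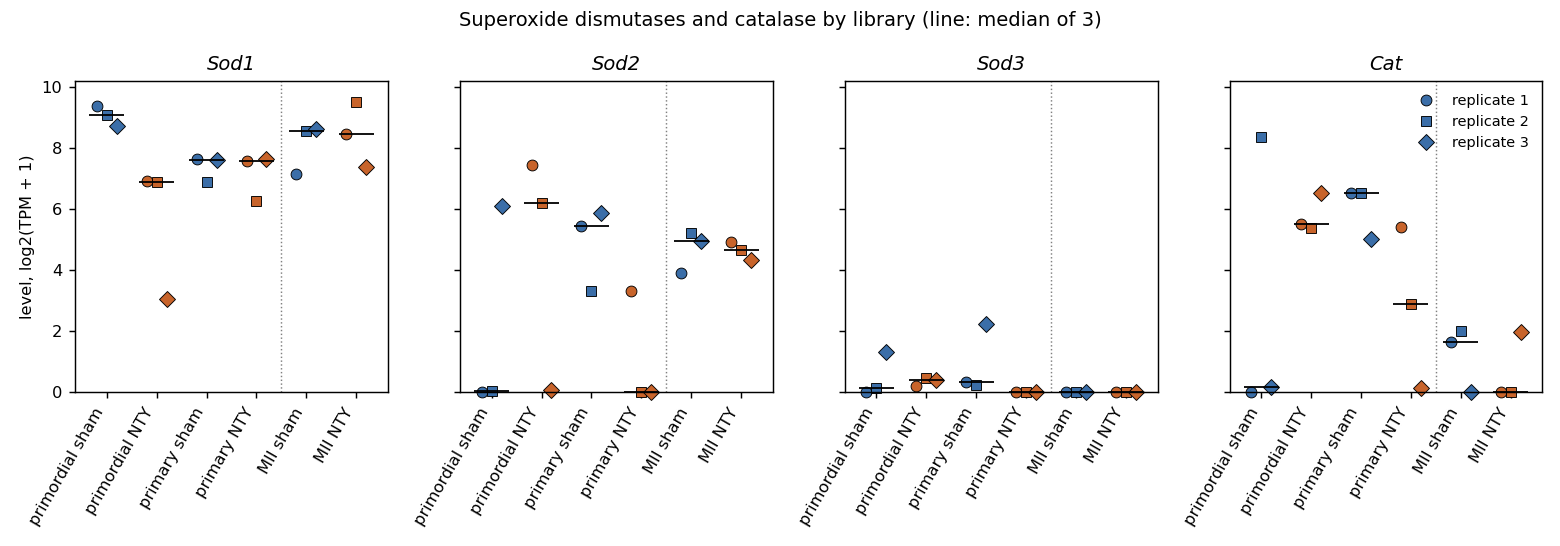
Level of the 4 members in each of the 18 libraries as log2(TPM + 1), by group, with sham in blue, NTY in orange, the marker shape giving the replicate and the line the median of 3. The dotted line parts the microdissected stages from MII. Sod1 is above 7 TPM in every library, Sod2 and Cat swing between 0 and over 100 TPM within the microdissected groups, and Sod3 stays below 4 TPM.

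Sod2, unlike Sod1, ranged from no counts to 4422 counts across the microdissected libraries. The gene (ENSMUSG00000006818) spans 13006846 to 13040063 on the plus strand of chromosome 17 in GRCm38, with no other annotated gene on it. In the primordial sham libraries it had 0, 1 and 1676 counts, that is 0, 0.0307 and 68.1 TPM. In primordial NTY it had 4422, 1986 and 2 counts, or 172, 73.2 and 0.0663 TPM. Both groups thus held libraries at the floor and libraries above 60 TPM, and they overlapped. NTY against sham gave a log2 fold change of 1.73 ± 2.99 (edgeR adjusted p = 0.913).

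In primary follicles Sod2 was found in all 3 sham libraries, at 42.8, 8.96 and 58.1 TPM. In NTY it was found in 1 library, at 8.98 TPM, and had no counts in the others. The single NTY library with Sod2 lay just above the lowest sham library, so the ranges overlapped. The log2 fold change was -3.05 ± 3.14 (edgeR adjusted p = 1), and the difference of the NTY effects, primary minus primordial, was -4.78 ± 4.32 (edgeR adjusted p = 0.774). Both kept a negative sign under every alternative tried. The primary NTY libraries without Sod2 counts were replicates 2 and 3, whose codes in the labels are alike, and Sod1 was present in both, at 76.0 and 200.1 TPM.

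In 5 of the 12 microdissected libraries Sod2 had 3 counts or fewer. Of the 7588 genes that reached 1000 counts in a microdissected library, 26.1% had that few in 5 or more, so many of these genes had such gaps. That set was not matched to the level of Sod2. In MII it had no such gaps. There it stood at 14.2, 36.5 and 30.2 TPM in sham and at 29.3, 24.6 and 19.3 TPM in NTY, a smaller relative spread than that of Sod1 or Cat. For NTY against sham in MII the log2 fold change was -0.05 ± 0.39 (edgeR adjusted p = 1.00), an SE far below those of the follicle stages.

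The balance between the mitochondrial and the cytosolic enzyme was taken as the Sod2 share of the summed Sod1 and Sod2 TPM, a ratio within a library that no scaling between libraries can move. In MII it was narrow, at 8.35% ± 1.12 (SD, n = 3) in sham and 7.08% ± 3.57 (SD, n = 3) in NTY. In the microdissected libraries it ran from 0% in 3 libraries to 59.0% in primordial NTY replicate 1, the 1 library of 18 in which Sod2 TPM exceeded Sod1 TPM. The primordial NTY libraries stood at 59.0%, 38.5% and 0.905%. The primordial sham libraries stood at 0%, 0.00571% and 13.7%, and with the marker-poor NTY library included the groups overlapped.

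For primary follicles the order of the groups was the other way round. The sham libraries had shares of 17.8%, 7.08% and 23.1%. The NTY libraries had shares of 4.48%, 0% and 0%, all below the sham values. Over all 18 libraries the mean share was 13.8% in NTY and 9.64% in sham, a difference of 4.14 percentage points in an exact two-sided permutation test within stages (p = 0.574, 8000 arrangements, adjusted p = 0.574 over 2 tests). Without primordial NTY replicate 1 this difference was -0.22 points, and with shares of counts in place of TPM it was -2.17, so its direction rested on 1 library and on the unit. Between primary and primordial libraries the difference, averaged over sham and NTY, was -9.94 points (8.74% against 18.7%, exact permutation within sham and NTY, p = 0.405, 400 arrangements, adjusted p = 0.574). Sham and NTY went opposite ways. In sham the mean share was 4.58% in primordial and 16.0% in primary libraries, and in NTY it was 32.8% and 1.49%. The averaged difference therefore describes neither treatment.

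**Figure D2:**
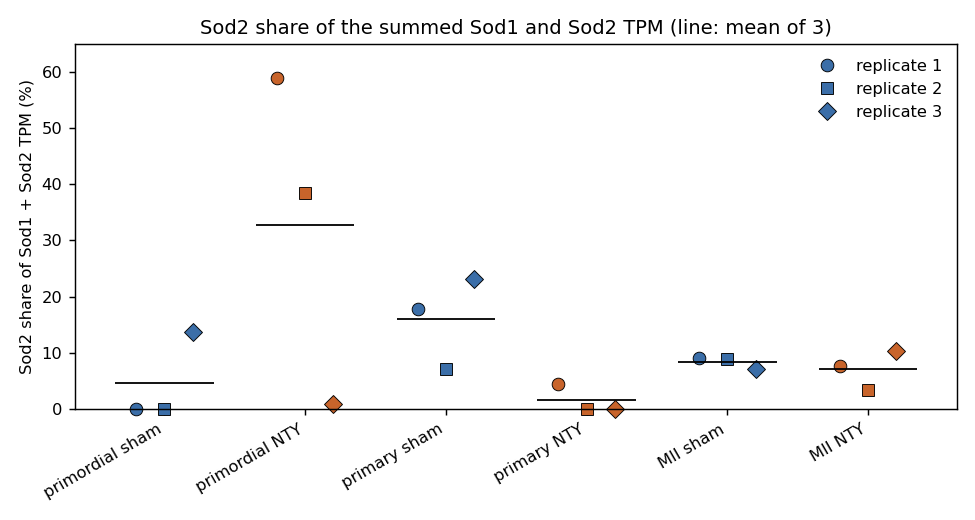
Sod2 share of the summed Sod1 and Sod2 TPM in percent, for each library by group (sham blue, NTY orange, shape for the replicate, line for the mean of 3). The MII libraries lie between 3.26% and 10.3%, and the microdissected ones between 0% and 59.0%.

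Sod3, the secreted dismutase, was close to or below the floor almost everywhere. Its gene (ENSMUSG00000072941) runs from 52363791 to 52371418 on the plus strand of chromosome 5 in GRCm38. In primordial sham it had 0, 3 and 36 counts, and in primordial NTY 4, 10 and 10. In primary sham it had 7, 5 and 113 counts, the last of which, 3.76 TPM, was the highest level in the series. In primary NTY and in all 6 MII libraries it had 0 counts.

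All primary NTY values of Sod3 were thus below all sham values, as were those of 9.63% of the 17164 genes with a value in these libraries. They were also below all primordial NTY values, as for 3.65% of 15930 genes. With 3 counts as the floor in each NTY library, most of the sham counts (5 and 7) were less than 3 times that floor, and a loss was not detectable at this depth from those libraries alone. Sod3 was the 1 member that did not pass the filter on low counts, in either fit, and had no test in them. With every gene that had a count kept in, it was tested in the microdissected fit and not called (edgeR adjusted p = 0.491 for NTY against sham in primary follicles).

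Catalase, the peroxisomal enzyme downstream of the dismutases, ranged from 0 to 7380 counts, the widest range in counts of the 4 members. Its gene (ENSMUSG00000027187) lies on the minus strand of chromosome 2, from 103453849 to 103485160 in GRCm38, and no other annotated gene overlaps it. The primordial sham libraries had 0, 7380 and 2 counts of Cat, or 0, 332 and 0.119 TPM. The primordial NTY libraries had 785, 755 and 1893 counts, or 44.8, 40.7 and 91.9 TPM. The 3 NTY libraries all lay between the extremes of the sham libraries. The library poor in oocyte markers had the highest Cat of the NTY libraries, and there Cat was above Sod1 (91.9 against 7.26 TPM).

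For NTY against sham in primordial follicles, the log2 fold change of Cat was -0.62 ± 2.71 (edgeR adjusted p = 0.980). Its sign was not stable. It turned with RLE normalization (0.26), in both DESeq2 fits (0.26), with voom (5.53), on both TPM scales (2.97 and 4.83) and with the replicate block (1.76), all with every library kept. Without primordial sham replicate 2, the one with 7380 counts, the fold was 10.1, a value that depends on the prior count because the sham libraries left hold 0 and 2 counts, and it did not pass the test either (edgeR adjusted p = 0.495).

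In primary follicles Cat stood at 92.6, 91.8 and 31.8 TPM in sham. In NTY it stood at 42.1, 6.48 and 0.0955 TPM, with 1 library inside the sham range and the others below it. The log2 fold change was -1.71 ± 2.78 (edgeR adjusted p = 1), negative under each of the 16 alternatives, between -4.10 and -1.14. The difference of the NTY effects, primary minus primordial, was -1.10 ± 3.83 (edgeR adjusted p = 0.981). Cat had 3 counts or fewer in 3 of the 12 microdissected libraries. Of the 7588 genes that reached 1000 counts in a microdissected library, 46.3% had that few in 3 or more. That set was not matched to the level of Cat.

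In MII oocytes Cat was barely found. The sham libraries had 24, 28 and 0 counts and the NTY libraries 0, 0 and 26, at most 3.04 TPM, against a median of 41.4 TPM in the microdissected libraries. In each of the 6 MII libraries its level was below those of Sod1 and Sod2. In 9 of the 12 microdissected libraries Cat was above the highest MII value, but 3 libraries with 2 counts or fewer overlapped MII. NTY against sham in MII gave a log2 fold change of -0.68 ± 2.15 (edgeR adjusted p = 1.00).

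Between MII and the microdissected libraries as a whole, 0 of the 4 members was free of overlap in either direction. This is a description without a test. Of 25063 genes with a value, 14.3% were higher in MII without overlap and 1.71% lower. Sod1 ran from 141 to 729 TPM in MII and from 7.26 to 668 TPM in the microdissected libraries, and Sod2 from 14.2 to 36.5 TPM and from 0 to 172 TPM.

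Sod1, Sod2 and Cat, 3 of the 4 members, passed the filter on low counts in both fits, and 0 of 3 was called in any of the 6 comparisons. Passing the filter needed counts in 1 group only, so it is itself tied to the levels. The background was equally low. EdgeR called 0.0095% of 10522 genes for NTY against sham in primordial follicles, 0% in primary follicles, 0.0095% for their mean, 0% for primary against primordial follicles, 0.0095% for the difference of the NTY effects and 0% of 12209 genes in MII. At an unadjusted p under 0.05, 0 of the 18 tests of members passed with edgeR, 2 with DESeq2, 3 with voom (limma) and 1 on log2(TPM + 1) (limma). The shares over all genes tested in the same comparisons were 8.98%, 16.4% (11.9% with the filter on Cook distances), 8.55% and 5.87%. None of the member tests passed after adjustment. Over the follicle stages together, the mean NTY effect was -1.25 ± 1.81 for Sod1 (edgeR adjusted p = 0.922), -0.66 ± 2.06 for Sod2 (edgeR adjusted p = 0.983) and -1.17 ± 1.94 for Cat (edgeR adjusted p = 0.941). For primary against primordial follicles Sod2 gave -2.06 ± 2.14 (edgeR adjusted p = 0.848) and Cat -1.38 ± 1.95 (edgeR adjusted p = 0.935).

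**Figure D3:**
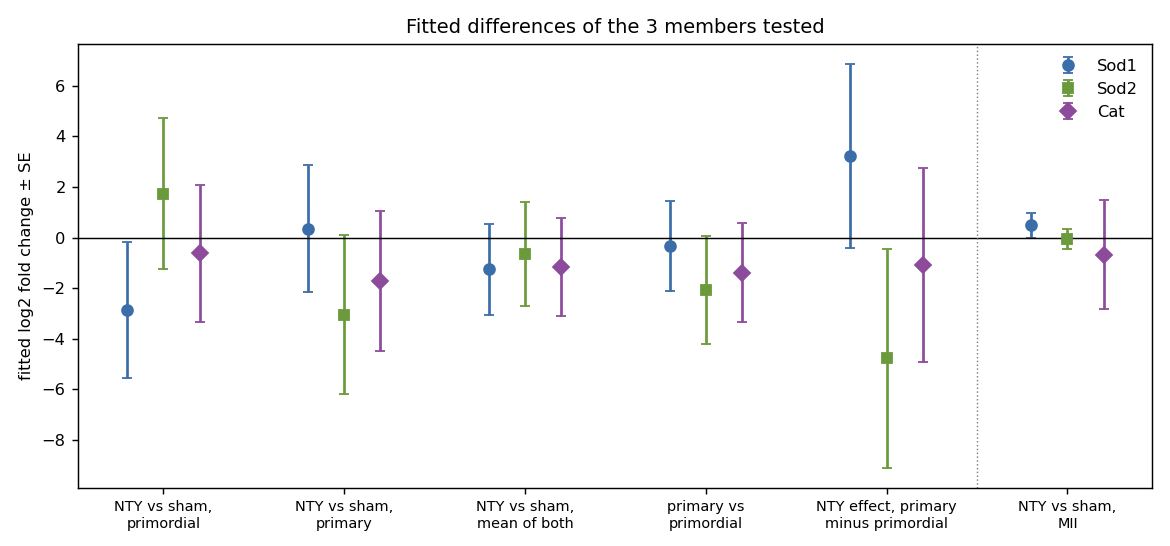
Fitted log2 fold changes of Sod1, Sod2 and Cat with their SE (edgeR) in the 5 comparisons of microdissected libraries, left of the dotted line, and in MII. In the follicle stages the SE is 1.78 to 4.32 and most bars reach 0, and in MII it is 0.39 for Sod2, 0.49 for Sod1 and 2.15 for Cat.

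The members did not rise and fall together over the 12 microdissected libraries. On log2(CPM + 1), Pearson's r was -0.43 between Sod1 and Cat, -0.02 between Sod1 and Sod2 and 0.09 between Sod2 and Cat. These are descriptions over libraries that share group, depth and gaps in detection. Among the 10521 other genes that passed the filter, the pattern most like that of Cat was Pex13, a membrane protein of the peroxisomal import machinery that brings catalase into the organelle (r = 0.935, Spearman's rho = 0.921, n = 12). Pex13 had 3 counts or fewer in each of the 3 libraries in which Cat had so few and in 1 further library. Like Cat, Pex13 was highest in primordial sham replicate 2, at 578 TPM. With primary NTY replicate 3 and primordial sham replicate 1 left out, the libraries in which Cat lay farthest from its median, r was 0.898. Primordial sham replicate 2, with the shared peak, and replicate 3, with a shared gap, were kept in that value. Pex13 was picked for its r in these same libraries, so its values are a description only.

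Pex13 parted from Cat in MII, where it stood at 156 to 212 TPM while Cat was at 0 to 3.04 TPM. Next in likeness to Cat came Adam17, a membrane protease (r = 0.930), and Brd7, a bromodomain protein (r = 0.894). The genes most like Sod2 were Zkscan8, a zinc finger gene (r = 0.965), Nos2, the inducible nitric oxide synthase (r = 0.940), and Msn, which links actin to the membrane (r = 0.930). Nos2 had 3 counts or fewer in the same 5 microdissected libraries as Sod2. Those most like Sod1 were Dym (r = 0.907), Rere (r = 0.900) and Utp4 (r = 0.889), and for them r fell to between 0.697 and 0.783 without primordial sham replicate 1 and primordial NTY replicate 3.

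The genes around the members were followed with 6 lists, 40 genes in all, covering copper delivery to Sod1, peroxisomal import, peroxisomal oxidases, superoxide producers, other peroxide-removing enzymes and regulators. Of the 40, 20 were tested in the microdissected fit and 23 in MII. In each of the 6 comparisons 0 was called in either direction by edgeR, and at most 2 had an unadjusted p under 0.05. That maximum, 2 of 20, was for primary against primordial follicles, where 10.8% of all genes tested had such a p. The median log2 fold change of the listed genes for NTY against sham was -0.46 in primordial follicles against 0.12 over all genes tested, 0.02 against -0.10 in primary follicles, and -0.21 against 0.00 in MII. Foxo1 and Foxo3, the forkhead transcription factors, had at least 10 counts in all 12 microdissected libraries, and 17 of the 40 genes did so in all 6 MII libraries.

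Copper reaches Sod1 through the chaperone Ccs, and the importer Slc31a1, the chaperone Atox1 and the pump Atp7a move copper within the cell. Ccs had 3 counts or fewer in 8 of the 12 microdissected libraries and in 4 of 6 in MII, and its highest level was 6.85 TPM. Atox1 had 0 counts in all 3 primordial sham libraries and 364, 618 and 0 in primordial NTY. It was the listed gene with an unadjusted p under 0.05 in that comparison, and it was not called (edgeR adjusted p = 0.405). In MII Atox1 was found in every library, at 8.31 to 37.4 TPM.

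Among the genes of peroxisomal import, the receptors Pex5 and Pex7 and the membrane proteins Pex13 and Pex14 were found in all 6 MII libraries. Pex10 was at 0 there, and Pex2 had 3 counts or fewer in 5 of the 6. Pex5 ran from 0 to 275 TPM in the microdissected libraries, and Pex14 from 0 to 62.7 TPM. Pex14 was among the 2 listed genes with an unadjusted p under 0.05 for primary against primordial follicles, with a log2 fold change of 6.23 ± 2.40 (edgeR adjusted p = 0.337), and the other was Slc31a1, at 4.93 ± 2.39 (edgeR adjusted p = 0.449). Of the peroxisomal oxidases, which make hydrogen peroxide that catalase removes, 4 had no count in any library. Acox3, an oxidase of branched fatty acids, was at most 0.344 TPM in the microdissected libraries and stood at 3.25 to 20.7 TPM in MII.

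The genes of the list named superoxide producers, which are NADPH oxidase genes and Xdh, were sparse as well. Of these 13 genes 2 were tested in the microdissected fit and 5 in MII. Xdh, xanthine dehydrogenase, ran from 0 to 9.93 TPM in the microdissected libraries and from 1.54 to 9.16 TPM in MII. Cybb, the catalytic subunit of the phagocyte NADPH oxidase, was at most 4.23 TPM in the series. Duox2 had 16826 counts in primary NTY replicate 3 and 3 or fewer in the other 11 microdissected libraries. Noxo1, an organiser of NADPH oxidase, stood at 6.28 to 18.2 TPM in MII and was at most 0.743 TPM in the microdissected libraries.

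Other enzymes remove hydrogen peroxide beside catalase. Gpx1, a glutathione peroxidase, ran from 0 to 495 TPM in the microdissected libraries and from 23.3 to 93.4 TPM in MII. In MII Gpx1 was above Cat in each library, as was the peroxiredoxin Prdx5, at 42.3 to 98.3 TPM. Prdx3, the mitochondrial peroxiredoxin, was lower, at 0 to 20.6 TPM in MII. Among the regulators, Foxo3, which is known for keeping primordial follicles dormant, ran from 246 to 1578 TPM in the microdissected libraries, the highest being primordial NTY replicate 3. Nfe2l2, which drives antioxidant genes, ran from 0 to 86.3 TPM there and from 11.9 to 26.2 TPM in MII.

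**Figure D4:**
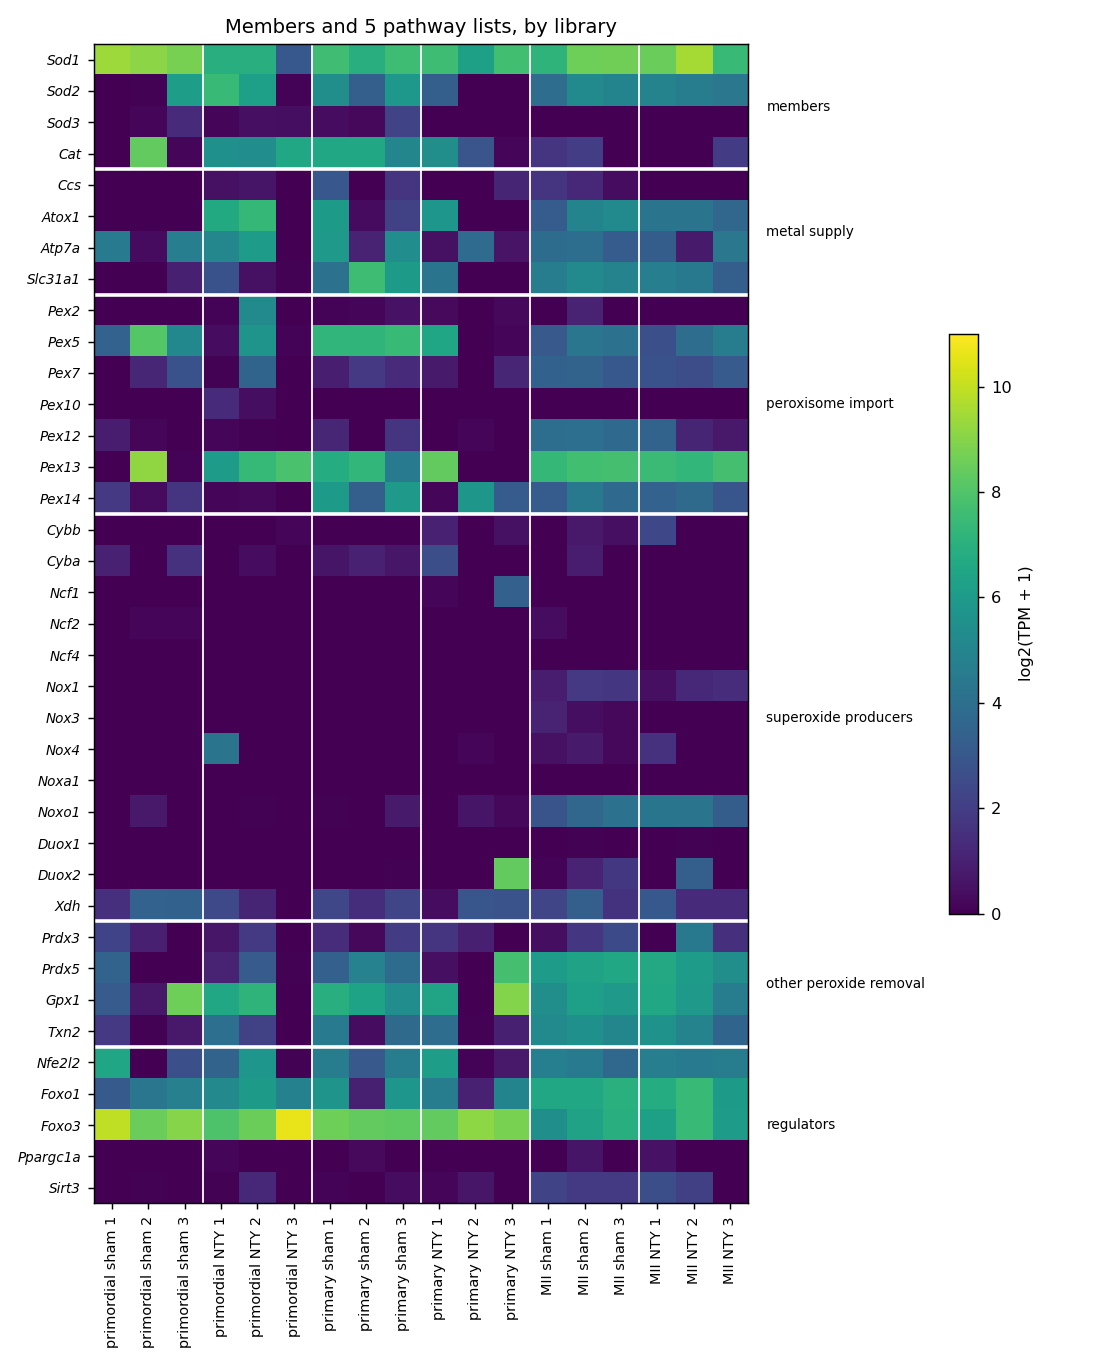
Level of the 4 members and of the genes of 5 lists (all but the oxidases) in each library, as log2(TPM + 1) in colour from 0 to 11, with libraries in columns by group and lists parted by white lines. Sod1 and Foxo3 are coloured across all columns, Cat and Pex13 share gaps in 3 microdissected columns, and the MII columns have fewer gaps in import and peroxide-removal genes.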

How the data were processed

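Bulk RNA sequencing of 18 mouse oocyte libraries was analysed from the deposited tables. The counts deposited by the authors are whole numbers of reads for 53715 genes, without normalization. The TPM values deposited by the authors cover 28252 of these genes, the 4 members among them. Per the submitters' processing notes, Trim Galore 0.4.1, TopHat2, featureCounts and the mm10 build were used. The settings, the annotation and the strand of counting are not given in the sources used here. The counts outside the TPM table were at most 0.295% of a library. Linear amplification of little RNA can lose a transcript from a library, and TPM depends on the gene lengths used.

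Groups were taken from the labels. Counts were tested with edgeR 4.0.16 under R 4.3.3 by its quasi-likelihood test (robust, TMM, filterByExpr by group), with 12 microdissected libraries in 1 fit and 6 MII libraries in another, and a Benjamini-Hochberg adjusted p under 0.05 as the threshold. The SE given with an edgeR fold was computed as the absolute log2 fold change over the square root of its F statistic. It was not estimated by the fit itself. Alternatives used DESeq2 1.42.0 and limma 3.58.1. The Sod2 share was compared with exact permutation tests in Python 3.11.15 with numpy 2.4.6. The fits were tried on simulated counts with a smaller spread between replicates than in these libraries. The permutation test was tried on values with a known difference. Those checks do not show the power of the tests in these data. Same-numbered replicates did not deviate together (mean correlations from -0.0356 to 0.0125), and no replicate pair was a copy of another (chi-square per degree of freedom at least 34.1). That check cannot tell whether primary NTY replicates 2 and 3, whose codes are alike, came from separate material. The labels do not state it. The floors of 3 counts cover counting error only.

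The named genes are the members, the genes of the 6 lists and, for each member tested, the 3 genes with the highest Pearson's r over the microdissected libraries. The values of 1 gene of the lists are not reported here. The members and lists were chosen with earlier results of these data known. Marker lists covered oocytes (12 genes), granulosa cells (11), stroma (6), endothelium (4), leukocytes (5) and erythroid cells (5). The last 3 summed to at most 831, 35.7 and 40.8 CPM in a microdissected library and to at most 173, 49.9 and 1.01 CPM in MII. The 831 CPM was that of primordial sham replicate 1. By median, endothelial markers stood at 4.16 CPM in the microdissected libraries and 141 CPM in MII, and leukocyte markers at 0.493 and 23.9 CPM. Both were thus higher in MII by median, unlike the stromal and granulosa cell markers. Erythroid medians were 0.0384 and 0.114 CPM. Gene positions were taken from GENCODE M21 on GRCm38, the build of the files.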

Additional observations from a re-analysis of the deposited data

How the results depend on the processing

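The number of members past the threshold stayed at 0 in every comparison under each alternative run. Several directions turned, none with a call, and the cause was not tested. For Cat in primordial follicles (NTY against sham, log2) the value was 0.26 with RLE normalization and with DESeq2 with or without its Cook filter, 5.53 with limma voom, 2.97 on log2(TPM + 1), 4.83 on log2(TPM + 0.1), 1.76 with a replicate block, and -1.56 to 10.1 when each replicate was left out. For the mean NTY effect, Cat gave 0.92 with voom, 0.37 on log2(TPM + 0.1) and -2.25 to 4.21 without each replicate, and Sod2 gave -5.46 to 4.37. For primary against primordial follicles, Cat gave 0.89 with voom, 0.10 and 0.60 on the TPM scales and -2.45 to 3.88 without each replicate, and Sod2 gave 0.0223 on log2(TPM + 0.1) and -6.85 to 2.98. Sod1 in primary follicles turned to -0.21 on both TPM scales. In MII, leaving out each replicate gave -0.073 to 0.823 for Sod1 and -0.265 to 0.10 for Sod2. The NTY difference of the Sod2 share was -2.17 points on counts and -0.22 to 9.45 without each replicate.

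Among the left-out libraries, directions in the follicle stages turned without primordial sham replicate 2 for Cat and without primordial sham replicate 3 for Sod2, and that of the share without primordial NTY replicate 1. In MII they turned without NTY replicate 2 for Sod1, and without sham replicate 2 or 3 or NTY replicate 2 or 3 for Sod2. Whether the replicate numbers pair the samples is not known, since correlations near 0 cannot exclude a pairing at this spread between libraries. With the replicate block the number of genes called was 1 in primordial and 0 in primary follicles, as without it, and no member was called. DESeq2 without its Cook filter called 1213 genes in primordial follicles, 698 in primary follicles and 29 in MII, against 1, 0 and 0 with edgeR, and 0 of the members. The non-overlap counts and the values without primordial NTY replicate 3 were chosen after seeing the data. The microdissected libraries were deeper than those of MII and had the larger spread between replicates. The cause of that spread was not tested.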
